A study of Homo sapiens with 3 samples.

Results

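The transporters described here are 10 genes for plasma membrane amino acid transporters, chosen by name, of which 9 are among the 16662 genes listed for H1975 cells. SLC43A1 was not analysed here, and the 9 analysed were SLC7A11, SLC3A2, SLC7A5, SLC38A1, SLC38A2, SLC1A4, SLC1A5, SLC7A1 and SLC6A9. H1975 is an established human lung adenocarcinoma line. Its cells received siHHLA3-1 or siHHLA3-3, differently numbered small interfering RNAs (siRNAs) against HHLA3, or the control siRNA siNC, with 1 library for each. All cells were transfected at about 70% confluency, spent 6 h without serum and were then kept for 24 h in medium with 10% serum. Each siRNA stands on a single library with its own batch label, so siRNA and batch cannot be told apart. In such bulk RNA, expression in fewer cells and less RNA per cell cannot be told apart either. All differences below are between single libraries, no p-value was computed, and every interval is a 95% interval for counting error only.

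Amino acids cross the plasma membrane mainly through carrier proteins, and most carriers take a group of related amino acids. SLC3A2 is a glycoprotein that forms disulfide-linked pairs with light chains such as SLC7A5 and SLC7A11 and brings them to the cell surface. Tumour cells commonly carry much SLC7A5 and SLC1A5, which supply leucine and glutamine, and SLC7A11, which imports cystine for glutathione. When amino acids run short, the kinase GCN2 raises translation of the transcription factor ATF4, which acts through an element in its target genes called the amino acid response element. Several of these transporters are known ATF4 targets.

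Stretches of the transporters' promoters are shown because of that known link to ATF4. RefSeq promoter windows on GRCh38.p14, running from 250 bases before to 50 bases after a start, were at hand for 8 of the 9 genes, 14 windows in all. They were searched on both strands for TGATGNAA, the core of the amino acid response element. Of the 8 genes, 5 held a match in at least 1 window. Of all 35116 windows, 3.62% held one, and of 9989 genes with a window that averaged 1 CPM (read counts scaled to library size) or more, 2.60% did. No match overlapped a match of the other motifs searched. The matches follow in 30 bases each along the gene, with the match in capitals, which reads as the reverse complement in SLC1A4 and SLC3A2.
SLC1A4 (chr2:64989381-64989410): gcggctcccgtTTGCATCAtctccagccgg
SLC3A2 (chr11:62881719-62881748): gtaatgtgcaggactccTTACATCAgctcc
SLC38A1 (chr12:46266502-46266531): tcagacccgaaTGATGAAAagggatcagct
SLC7A1 (chr13:29595663-29595692): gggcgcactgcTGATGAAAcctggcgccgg
SLC1A5 (chr19:46784893-46784922): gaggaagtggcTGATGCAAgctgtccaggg

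The match began 7 bases before the start in SLC1A4, 4 bases before it in SLC38A1 and 97 bases before it in SLC1A5. With the start counted as base 1, it began at base 8 in SLC7A1 and base 38 in SLC3A2. SLC1A4, SLC1A5, SLC38A1 and SLC3A2 have more than 1 annotated start, with the match at only 1 of them, and the table does not say which start these cells used. SLC7A5, SLC38A2 and SLC6A9 had no match in their windows. For SLC3A2 and SLC7A5, the chains of one exchanger, 1 window each is given in full. That of SLC3A2 is the one with its match, and its other windows, not shown, held no match of any motif searched. Capitals mark TGATGNAA, CACGTG (the E-box, which MYC can bind) and TGACNNNGC (the core of the antioxidant response element, which NRF2 can bind).
SLC3A2 (chr11:62881449-62881748, plus strand): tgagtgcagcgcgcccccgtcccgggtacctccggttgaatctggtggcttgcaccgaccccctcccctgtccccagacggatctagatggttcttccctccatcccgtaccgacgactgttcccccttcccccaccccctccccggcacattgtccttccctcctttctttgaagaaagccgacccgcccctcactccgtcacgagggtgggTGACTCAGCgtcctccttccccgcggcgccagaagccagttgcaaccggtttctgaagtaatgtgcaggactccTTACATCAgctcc
SLC7A5 (chr16:87869458-87869757, minus strand): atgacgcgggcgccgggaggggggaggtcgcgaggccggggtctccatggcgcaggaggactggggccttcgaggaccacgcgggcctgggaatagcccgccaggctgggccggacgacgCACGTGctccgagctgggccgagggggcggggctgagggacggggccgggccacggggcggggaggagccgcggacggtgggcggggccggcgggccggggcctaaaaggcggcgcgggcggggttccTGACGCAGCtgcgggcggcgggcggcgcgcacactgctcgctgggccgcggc

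TGACNNNGC was found in windows of 4 of the 8 genes, against 19.4% of the 9989 genes and 13.3% of all windows. CACGTG was found in 2 of the 8, SLC7A5 and SLC1A5, against 12.4% and 7.26%. A match says only that these letters are present.

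**Figure D1:**
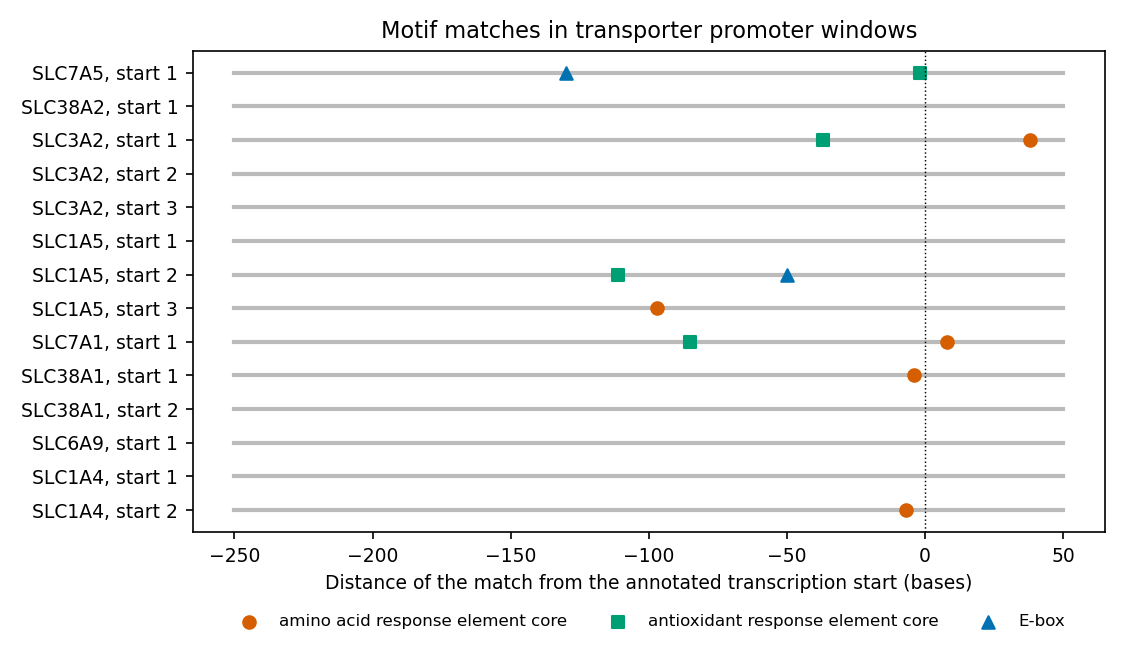
Positions of motif matches in the 14 promoter windows of 8 transporter genes, with the distance from the annotated start in bases on the horizontal axis and 1 grey line per window; markers stand for the elements named in the legend. The amino acid response element core lies in 5 of the 14 windows. It begins between 97 bases before the start and base 38, with the start counted as base 1.

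The library totals, as the deposited CPM imply them, were 35069930 reads for siHHLA3-1, 26950852 for siHHLA3-3 and 32813003 for siNC. HHLA3, the targeted gene, had 55 counts with siHHLA3-1, 20 with siHHLA3-3 and 192 with siNC. Its CPM was 0.259-fold the siNC level with siHHLA3-1 (0.188 to 0.351) and 0.123-fold with siHHLA3-3 (0.0733 to 0.195). Of 10 epithelial and lung adenocarcinoma markers 9 were measured, at 5042, 4190 and 5338 CPM in sum with siHHLA3-1, siHHLA3-3 and siNC (scaled by TMM, a normalisation between libraries). The mucin MUC1 had 22.6, 16.2 and 9.38 TPM in the same order, highest with siHHLA3-1, and keratin KRT19 had 1084, 739 and 1141 CPM, lowest with siHHLA3-3. The lung factor NKX2-1 had log2 ratios to siNC of 0.13 with siHHLA3-1 and -0.89 with siHHLA3-3. Of 12 markers of leukocytes, endothelium and fibroblasts 4 were measured, with summed levels of 56.4, 24.8 and 32.5 CPM with siHHLA3-1, siHHLA3-3 and siNC. Per length, the highest of the 4 in each library was CD14, at 21.2, 14.1 and 20.2 TPM in the same order. The other 8, PTPRC, PECAM1 and VWF among them, were not analysed here. The part of these differences in the transporter values was not tested.

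The transporters' levels ran from 9.12 to 633 TPM with siHHLA3-1, from 16.4 to 1132 TPM with siHHLA3-3 and from 9.40 to 794 TPM with siNC. TPM, the authors' value scaled by gene length, is used wherever genes are compared with each other. SLC7A5 was the highest in every library, above at least 99.0% of genes that averaged 1 CPM or more. With siNC the order from high to low was SLC7A5, SLC38A2, SLC3A2, SLC1A5, SLC7A1, SLC7A11, SLC38A1, SLC6A9 and SLC1A4. The counting intervals of SLC7A11 (19.2 to 21.1 TPM) and SLC38A1 (19.2 to 21.0 TPM) overlapped there, and those of the other neighbours did not. With siHHLA3-1 no neighbours overlapped. With siHHLA3-3, SLC3A2 stood above SLC38A2, and the intervals of SLC38A1 and SLC6A9, and of SLC7A11 and SLC1A4, overlapped. The 4 highest genes with siNC made up 89.9%, 91.1% and 91.4% of the summed TPM of all 9 with siHHLA3-1, siHHLA3-3 and siNC. That sum was 1365 TPM with siHHLA3-1, 2007.5 TPM with siHHLA3-3 and 1443 TPM with siNC.

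**Figure D2:**
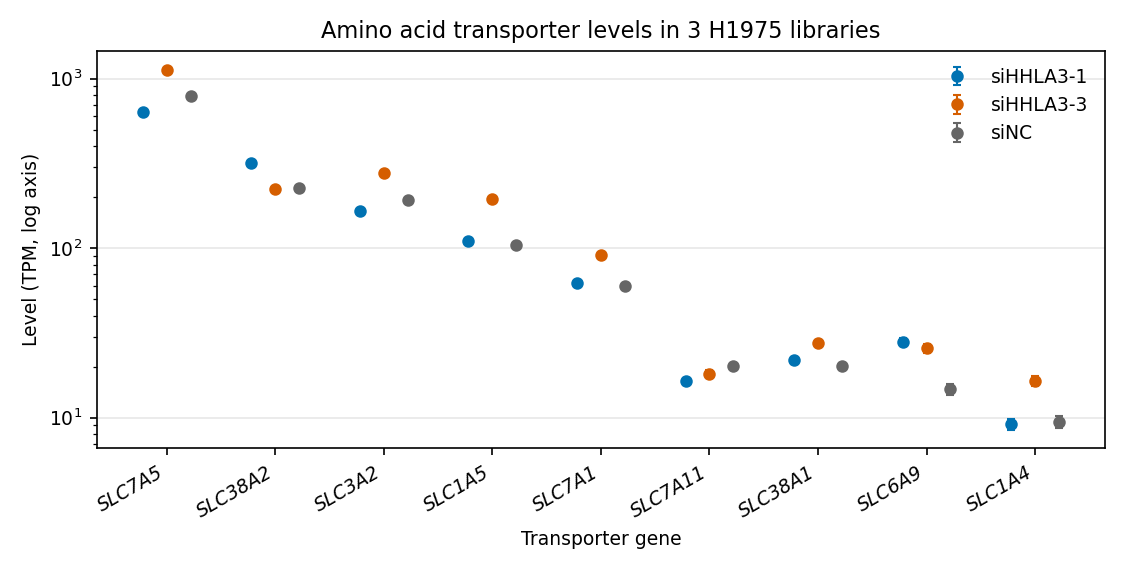
Level of each transporter gene in TPM on a log axis, with 1 point per library (siHHLA3-1, siHHLA3-3, siNC) and bars for the 95% counting interval, which is mostly smaller than the point. SLC7A5 is the highest in all 3 libraries, and SLC1A4 the lowest, at 9.12, 16.4 and 9.40 TPM.

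Against siNC, the siRNAs gave different pictures of the transporters. With siHHLA3-3, 7 of the 9 genes were above siNC and 2 below, and the median log2 ratio of (CPM + 1) was 0.46. With siHHLA3-1, 4 were above and 5 below, with a median of -0.01. Among all genes, 48.5% were above siNC with siHHLA3-3 and 48.2% with siHHLA3-1. The medians of all 13879 genes that averaged 1 CPM or more were -0.01 with either siRNA, and all 9 transporters passed that filter. None of the 9 was 2-fold apart in any comparison, where 1.35% of genes were with siHHLA3-1, 2.28% with siHHLA3-3 and 2.87% between the siHHLA3 libraries. At least 1.5-fold higher were SLC6A9 with siHHLA3-1 (1 of 9, against 5.03% of all genes) and SLC1A5, SLC6A9 and SLC1A4 with siHHLA3-3 (3 of 9, against 3.65%). None was 1.5-fold lower, against 3.34% of genes with siHHLA3-1 and 5.57% with siHHLA3-3. Both comparisons use the same siNC library.

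**Figure D3:**
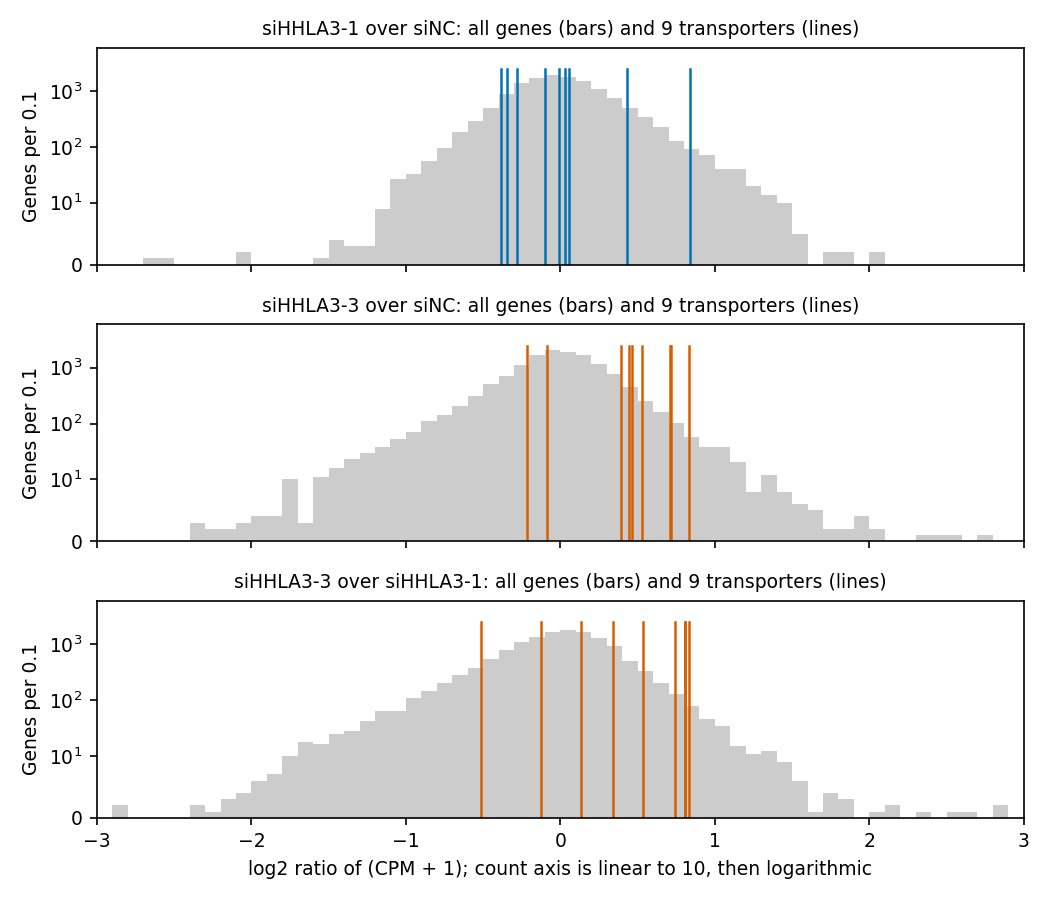
Number of genes per 0.1 of log2 ratio (grey bars, axis linear to 10 and logarithmic above) for each pair of libraries, with a coloured line at each of the 9 transporters. With siHHLA3-3 over siNC 7 lines lie above 0, with a median of 0.46, and with siHHLA3-1 over siNC they spread around -0.01.

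The heavy chain SLC3A2 (ENSG00000168003; chr11:62856102-62888875, plus strand, in GENCODE release 29 on GRCh38, as for all positions of genes) stood at 165 TPM with siHHLA3-1, 279 TPM with siHHLA3-3 and 193 TPM with siNC. It was thus lowest with siHHLA3-1 and highest with siHHLA3-3. Its CPM was 0.821-fold that of siNC with siHHLA3-1 (0.800 to 0.843) and 1.38-fold with siHHLA3-3 (1.34 to 1.41).

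SLC7A5, also called LAT1, exchanges leucine and other large neutral amino acids against glutamine and pairs with SLC3A2 (ENSG00000103257; chr16:87830023-87869488, minus strand). Its levels were 633 TPM with siHHLA3-1, 1132 TPM with siHHLA3-3 and 794 TPM with siNC, from 30068, 41064 and 35481 counts. It followed the same order as its heavy chain. The folds to siNC were 0.766 (0.754 to 0.777) with siHHLA3-1 and 1.36 (1.34 to 1.38) with siHHLA3-3. The ratio of SLC7A5 to SLC3A2 in TPM was 3.83 with siHHLA3-1, 4.06 with siHHLA3-3 and 4.11 with siNC.

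SLC7A11, or xCT, brings in cystine in exchange for glutamate and also pairs with SLC3A2 (ENSG00000151012; chr4:138164097-138242349, minus strand). It stood at 16.4 TPM with siHHLA3-1, 18.1 TPM with siHHLA3-3 and 20.2 TPM with siNC. Of the 9, it alone lay below siNC beyond the counting interval in both knockdown libraries. A smaller ratio than that of SLC7A11 was held by 11.9% of all genes with siHHLA3-1 and 23.1% with siHHLA3-3. The folds were 0.782 (0.730 to 0.836) with siHHLA3-1 and 0.858 (0.799 to 0.922) with siHHLA3-3. Against its heavy chain it amounted to 0.0992 in TPM with siHHLA3-1, 0.0649 with siHHLA3-3 and 0.104 with siNC, so the ratio was lowest with siHHLA3-3.

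SLC1A5, or ASCT2, is a sodium-dependent exchanger and a main route for glutamine (ENSG00000105281; chr19:46774883-46788594, minus strand). It stood at 110 TPM with siHHLA3-1, 195 TPM with siHHLA3-3 and 104 TPM with siNC. Only the siHHLA3-3 library stood apart, at 1.79-fold siNC (1.71 to 1.87), while siHHLA3-1 gave 1.02-fold (0.972 to 1.07). Of all genes, 1.32% had a larger ratio with siHHLA3-3.

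SLC1A4, or ASCT1, carries serine, alanine and cysteine and belongs to the same family (ENSG00000115902; chr2:64988477-65023865, plus strand). It stood at 9.12 TPM with siHHLA3-1, 16.4 TPM with siHHLA3-3 and 9.40 TPM with siNC, from 631, 868 and 612 counts. Like SLC1A5 it stood apart only with siHHLA3-3, and SLC1A5 was at 12.1, 11.9 and 11.1 times its TPM with siHHLA3-1, siHHLA3-3 and siNC. The fold was 1.67 (1.51 to 1.86) with siHHLA3-3 and 0.931 (0.832 to 1.04) with siHHLA3-1.

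The sodium-coupled carriers SLC38A1 and SLC38A2, which take up glutamine, alanine and other small neutral amino acids, lie near each other on chromosome 12. SLC38A1 (ENSG00000111371; chr12:46183063-46270017, minus strand) stood at 21.8 TPM with siHHLA3-1, 27.7 TPM with siHHLA3-3 and 20.1 TPM with siNC. It was 1.32-fold siNC with siHHLA3-3 (1.24 to 1.41) and 1.04-fold with siHHLA3-1 (0.978 to 1.11). SLC38A2 (ENSG00000134294; chr12:46358189-46372867, minus strand), which cells short of amino acids are known to induce, differed from it. Its level was 319 TPM with siHHLA3-1, 224 TPM with siHHLA3-3 and 227 TPM with siNC. It was highest with siHHLA3-1, at 1.35-fold siNC (1.32 to 1.38), and 0.943-fold with siHHLA3-3 (0.920 to 0.967). The ratio of SLC38A2 to SLC38A1 in TPM was 14.7 with siHHLA3-1, 8.08 with siHHLA3-3 and 11.3 with siNC.

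SLC7A1, or CAT1, imports arginine, lysine and ornithine without a heavy chain (ENSG00000139514; chr13:29509410-29595688, minus strand). It stood at 62.1 TPM with siHHLA3-1, 90.6 TPM with siHHLA3-3 and 59.9 TPM with siNC. Only siHHLA3-3 stood apart, at 1.45-fold siNC (1.39 to 1.51). The interval for siHHLA3-1 was 0.955 to 1.04, and its log2 ratio of -0.01 turned positive under other scalings.

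SLC6A9, or GLYT1, is a sodium- and chloride-dependent glycine transporter (ENSG00000196517; chr1:43991500-44031467, minus strand). It stood at 27.9 TPM with siHHLA3-1, 25.6 TPM with siHHLA3-3 and 14.7 TPM with siNC, from 1459, 1024 and 722 counts in the same order. It was the 1 transporter above siNC in both knockdown libraries by at least 1.5-fold, at 1.83-fold with siHHLA3-1 (1.67 to 2.00) and 1.67-fold with siHHLA3-3 (1.52 to 1.84). CCDC24 overlaps it on the opposite strand with 208, 147 and 174 counts with siHHLA3-1, siHHLA3-3 and siNC. No source used here says whether the counting used strand, so reads in that overlap cannot be told apart. The genes nearest to SLC6A9 in their pair of log2 ratios were PHF11, FOXP4 and KIAA0040, at distances of 0.03, 0.05 and 0.07, among 10874 genes of at least 5 CPM over 3 libraries.

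**Figure D4:**
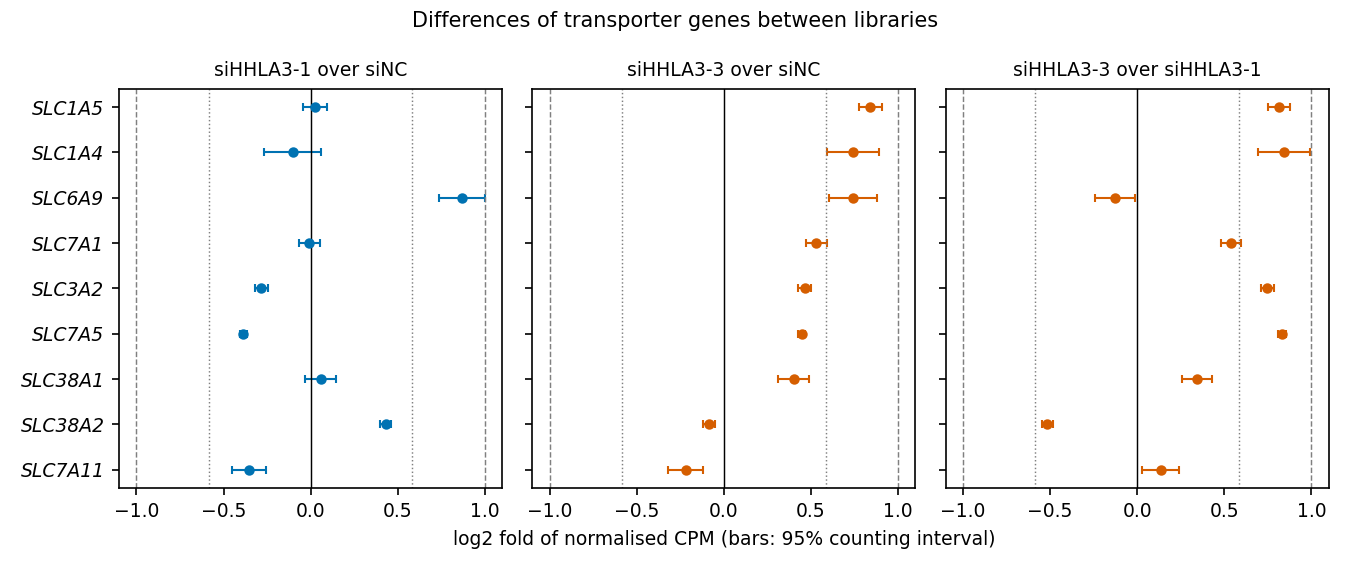
Log2 fold of normalised CPM for the 9 transporter genes in each pair of libraries, with bars for the 95% counting interval, dotted lines at 1.5-fold and dashed lines at 2-fold. SLC7A5 and SLC3A2 lie below siNC with siHHLA3-1 and above it with siHHLA3-3, and SLC6A9 lies above it with both.

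Set directly against siHHLA3-1, the siHHLA3-3 library held more of 7 transporters and less of 2, and more of 50.4% of all genes. SLC1A4 was 1.79-fold higher with siHHLA3-3 (1.62 to 1.99), SLC7A5 1.78-fold (1.75 to 1.81), SLC1A5 1.76-fold (1.69 to 1.84) and SLC3A2 1.68-fold (1.64 to 1.72). These were the 4 of 9 that were at least 1.5-fold higher, against 4.4% of all genes. SLC38A2 was 0.699-fold (0.683 to 0.716) and SLC6A9 0.915-fold (0.844 to 0.992), and none was 1.5-fold lower, against 7.82% of genes. The median log2 ratio of the 9 was 0.54, and that of all genes 0.00.

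The promoter matches can be set beside these values. The 5 genes with TGATGNAA had log2 ratios of 0.39 to 0.84 with siHHLA3-3. The 3 genes with windows and no match had 0.72 (SLC6A9), 0.45 (SLC7A5) and -0.08 (SLC38A2), so the ranges overlapped. With siHHLA3-1 the 5 had ratios of -0.28 to 0.06, and the 3 without a match 0.84 (SLC6A9), 0.43 (SLC38A2) and -0.39 (SLC7A5). Over the genes with a window, leaving out 3 names that several rows share, the 260 with a match had a median of -0.03 with siHHLA3-3 and the 9726 without one -0.02. Of those genes, 5.00% with and 3.18% without a match were at least 1.5-fold higher with siHHLA3-3. With siHHLA3-1 the shares were 6.54% with and 4.36% without a match. The 5 transporters with a match are among the 260 genes, and SLC1A4 and SLC1A5 are counted in the 5.00%.

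The 3' untranslated regions (UTRs) were also read, because an siRNA can lower other transcripts that pair with its first bases. No source used here gives the sequence of either siRNA. Of 16354 7-base sequences in GENCODE release 29 UTRs of 10493 genes, the one whose carriers lay lowest by a t statistic was CAGAATG with siHHLA3-1 and GTGAACT with siHHLA3-3. They were chosen from these same ratios, carriers lying 0.10 and 0.28 below other genes on the log2 scale. None of the 9 transporters carried CAGAATG, against 19.5% of genes searched, and 3 of them carried GTGAACT, against 13.2%. These sites are shown with the 7 bases in capitals.
SLC38A1 (chr12:46183063-46183092): ttaaacattaaaaaatGTGAACTaaaagta
SLC38A2 (chr12:46360950-46360979): gtgcagaataaGTGAACTtttttgttttgt
SLC7A1 (chr13:29511015-29511044): gagcaggcattGTGAACTggctggtgtttg

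With siHHLA3-3 the carriers SLC7A1 and SLC38A1 were above siNC and SLC38A2 was below it by 0.08. Without the 3 carriers the median of the other 6 transporters was 0.59 with siHHLA3-3 and -0.19 with siHHLA3-1.

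Of 19 measured genes of the ATF4 branch, 14 were above siNC with siHHLA3-1, against 48.2% of all genes, and 15 with siHHLA3-3, against 48.5%. The list also holds kinases other than GCN2, so it is not particular to amino acid shortage. In the siHHLA3-3 library 8 were at least 2-fold higher than siNC and none was 2-fold lower, with a median of 0.76. Of all genes, 2.28% were 2-fold apart there in either direction. With siHHLA3-1 the median was 0.35 and none of the 19 was 2-fold apart. Under siHHLA3-3, 4 of the 19 lay below siNC. They include the kinases EIF2AK1 (log2 ratio -0.81), EIF2AK3 (-0.45) and EIF2AK4, which is GCN2 (-0.12). Under siHHLA3-1 these kinases had -0.03, 0.43 and -0.22. The kinase EIF2AK2, of the same list, lay above siNC, at 0.31 under siHHLA3-1 and 0.17 under siHHLA3-3. All these kinases fall outside the naming rule and were named after their values were seen. CHAC1, which breaks down glutathione, had 7.21, 19.0 and 4.11 CPM with siHHLA3-1, siHHLA3-3 and siNC. In the same order, the transcription factor DDIT3 had 21.1, 56.2 and 14.4 CPM, and the pseudokinase TRIB3, which restrains ATF4, 136, 240 and 93.1 CPM. PPP1R15A, which directs removal of the phosphate from eIF2 alpha, had log2 ratios to siNC of 0.61 with siHHLA3-1 and 1.53 with siHHLA3-3, and SESN2, a leucine sensor, of 0.76 with siHHLA3-1 and 1.38 with siHHLA3-3. ATF4 itself, named outside the rule for its place in the pathway, had 252, 336 and 198 CPM with siHHLA3-1, siHHLA3-3 and siNC. The list was chosen with results of these libraries known, so it is no independent support for the transporter values.

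Among regulators and partners of the transporters, 1 of 18 measured genes was 2-fold apart with siHHLA3-3 and none with siHHLA3-1. NEDD4, a ubiquitin ligase of membrane proteins, had 31.0, 8.78 and 25.6 CPM with siHHLA3-1, siHHLA3-3 and siNC, and its UTR carries GTGAACT. OTUB1, a deubiquitinase known to stabilise the SLC7A11 protein, had 58.7, 37.1 and 65.8 CPM in the same order and carries it as well. MYC, which is known to raise SLC7A5 and SLC1A5 transcription, had 338 CPM with siHHLA3-1, 528 CPM with siHHLA3-3 and 360 CPM with siNC, and thus stood highest with siHHLA3-3. The kinase SGK1 had log2 ratios of 0.51 under siHHLA3-1 and 0.56 under siHHLA3-3 and carries CAGAATG, and the transcription factor PAX8 of 0.57 under siHHLA3-1 and 0.48 under siHHLA3-3. Of the other list genes named here, SLC36A4, SLC15A4, SESN3 and NKX2-1 carry GTGAACT, and SESN3, ODC1 and EIF2AK1 carry CAGAATG. The medians of the regulators were -0.09 with siHHLA3-1 and -0.06 with siHHLA3-3.

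Other transporters and sensors gave a mixed picture. Of 27 further plasma membrane transporters 4 were measured, with median log2 ratios to siNC of 0.11 with siHHLA3-1 and -0.02 with siHHLA3-3 and none 2-fold apart. The light chain SLC7A6 had 39.3, 48.6 and 31.2 CPM with siHHLA3-1, siHHLA3-3 and siNC, and the leucine carrier SLC43A2, of the same family as SLC43A1, 21.0, 11.5 and 17.9 CPM in the same order. SLC6A6, the taurine transporter, had log2 ratios of -0.12 under siHHLA3-1 and 0.05 under siHHLA3-3, and the proton-coupled family member SLC36A4 of 0.00 under siHHLA3-1 and -0.09 under siHHLA3-3. Of 9 measured lysosomal transporters 1 was 2-fold higher with siHHLA3-1 and none with siHHLA3-3, with medians of 0.24 with siHHLA3-1 and 0.31 with siHHLA3-3. That gene was SLC15A3, which carries histidine and small peptides, at 18.4, 10.5 and 7.82 CPM with siHHLA3-1, siHHLA3-3 and siNC, while its relative SLC15A4 had 22.4, 14.2 and 24.7 CPM in the same order. The arginine-gated SLC38A9 had 25.9, 45.3 and 32.0 CPM in that order too, and SLC38A7 and SLC66A1 were above siNC with both siRNAs, with log2 ratios of 0.37 to 0.53.

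The 24 measured genes of amino acid sensing upstream of mTORC1 were balanced, 12 above and 12 below siNC with either siRNA, with medians of -0.03 with siHHLA3-1 and 0.00 with siHHLA3-3. With siHHLA3-3, 1 was 2-fold higher and 1 lower, namely SESN2 (also in the ATF4 list) and SESN3, and none was with siHHLA3-1. SESN3 falls outside the naming rule and was named after its value was seen. The Rag GTPase RRAGD had log2 ratios of -0.31 under siHHLA3-1 and 0.73 under siHHLA3-3, and CASTOR2, of the arginine sensor family, of 0.11 under siHHLA3-1 and -0.64 under siHHLA3-3. FLCN and FNIP2, which form a complex acting on Rag GTPases, had 0.36 and 0.40 with siHHLA3-1, and 0.51 and 0.47 with siHHLA3-3.

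**Figure D5:**
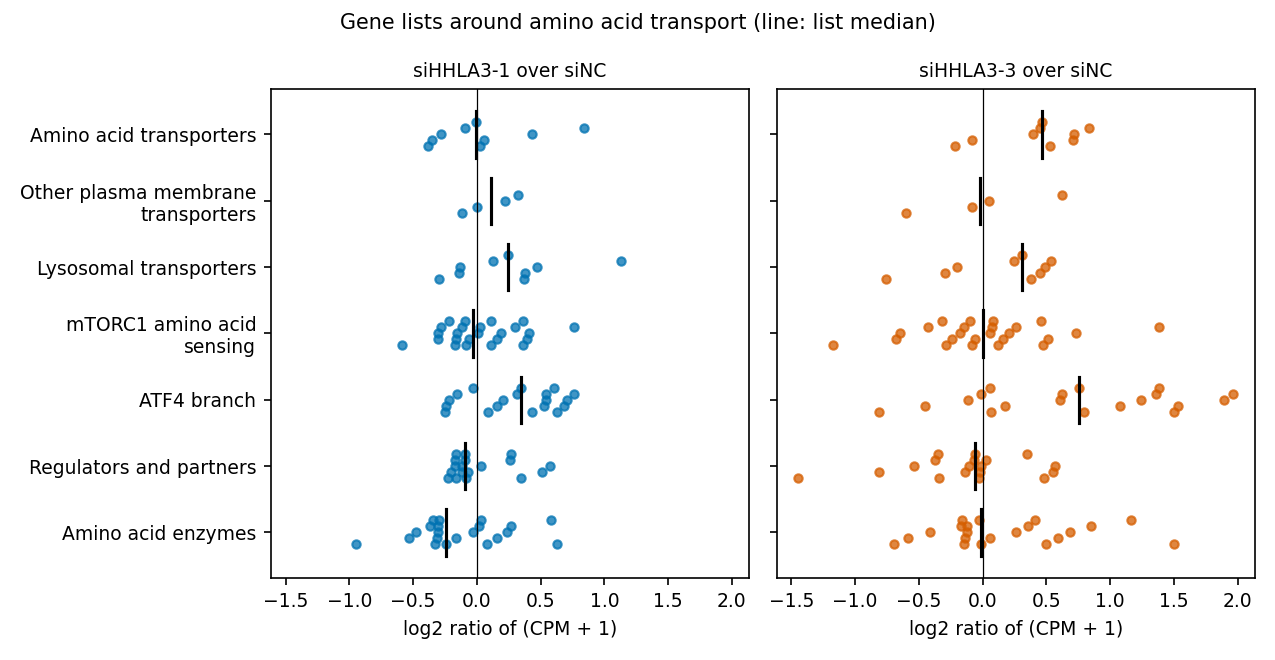
Log2 ratio of (CPM + 1) to siNC for each measured gene of 7 lists, with siHHLA3-1 on the left and siHHLA3-3 on the right; points are genes and black lines list medians. The ATF4 branch has medians of 0.35 with siHHLA3-1 and 0.76 with siHHLA3-3, and the amino acid transporters of -0.01 with siHHLA3-1 and 0.46 with siHHLA3-3.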

How the data were processed

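Trizol-extracted RNA was freed of DNA, and libraries for Illumina sequencing were built from 1 ug each, per the labels' protocols. The authors deposited whole read counts per gene, without normalisation. The deposited CPM are these counts scaled to the library total, and the deposited FPKM and TPM are scaled by the authors for gene length and library, per the file headers. The lowest FPKM summed over the libraries was 1.00. Per the submitters' processing notes the build was hg19, and Bowtie2, TopHat2, HISAT and HISAT2 are listed as tools without roles. Counting program, annotation and strand setting are not given in the sources used here. Promoter and UTR sequences are from GRCh38, another build, matched by gene. Of the identifiers, 16482 matched the gene name table.

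Counts were scaled by TMM (edgeR 4.0.16, R 4.3.3; factors 1.01, 1.01 and 0.978 for siHHLA3-1, siHHLA3-3 and siNC). Log2 ratios are of (CPM + 1), which understates differences of low genes, and folds are of the plain CPM. Genes averaging 1 CPM or more were kept. A gene was counted as apart at 2-fold, with 1.5-fold as an alternative. Level intervals are exact Poisson and fold intervals exact conditional binomial ones. PCR reads without molecular identifiers are not independent molecules, so all cover counting error only, and the depth, 3 counts being 0.0845 to 0.110 CPM, was not the limit for these genes.

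All 10 transporters were to be described, and of each other list at most 5 genes of at least 5 CPM with the larger ratio to siNC, and 3 genes nearest in pattern to the transporter with the largest ratio. Members and lists were chosen with earlier results of these data known. 7-base sequences were compared where at least 30 genes carried them, over all annotated UTRs of a gene of at least 5 CPM. Alternatives were DESeq2 1.42.0 size factors, library totals, no filter or one at a mean of 5 CPM, a pseudocount of 0.1, deposited TPM or FPKM, a counting interval beside size, and leaving out carriers of either 7-base sequence. Functions were tested on simulated data. An overlap of 1 transporter with another gene is not reported here. Other tools were pandas 2.3.3, scipy 1.17.1, numpy 2.4.6 and Python 3.11.15.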

Additional observations from a re-analysis of the deposited data

Results flagged for a closer look

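For 3 transporters the knockdown libraries lay on opposite sides of siNC, each beyond its counting interval. The share of all genes that did so was not computed, so this count has no background to be read against. The intervals cover counting error only, and SLC38A2 with siHHLA3-3 met the rule at 0.943-fold siNC. The log2 ratio of siHHLA3-3 to siHHLA3-1 was 0.75 for SLC3A2, 0.83 for SLC7A5 and -0.51 for SLC38A2. With 1 library per siRNA this difference was not tested.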

How the results depend on the processing

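The count of transporters 2-fold apart stayed at 0 in the 3 comparisons under the alternatives run, except at a 1.5-fold threshold, with 1, 3 and 4 for siHHLA3-1 over siNC, siHHLA3-3 over siNC and siHHLA3-3 over siHHLA3-1. The median with siHHLA3-3 was 0.51 with library totals, 0.53 with deposited TPM and 0.50 with deposited FPKM, where the median of all genes was 0.03, 0.05 and 0.03. Without carriers of either 7-base sequence, the medians of 6 transporters were -0.19 (siHHLA3-1 over siNC), 0.59 (siHHLA3-3 over siNC) and 0.78 (siHHLA3-3 over siHHLA3-1). Filters cannot change a single transporter's ratio. Of 135 ratios under the other scalings, units and pseudocount, 115 moved by less than their counting error and 20 by more, and 4 changed sign, all of them SLC7A1 with siHHLA3-1 (0.00 to 0.05). Over all genes, the number 2-fold apart was 188, 317 and 399, against 112, 175 and 208 with deposited FPKM and 1161, 1279 and 1695 at 1.5-fold. A pseudocount of 0.1 gave 313 with siHHLA3-1, and leaving out carriers gave 165 and 220 for the comparisons with siHHLA3-3, among 10685 genes. No paired analysis was possible because each group held 1 library. Without replicates, the spread between cultures is unknown and cannot be set against any fold given here.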

Other observations

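Of 21 measured enzymes that use the imported amino acids, 2 were at least 2-fold higher with siHHLA3-3 and none with siHHLA3-1. Of all genes, 2.28% were 2-fold apart in either direction with siHHLA3-3 and 1.35% with siHHLA3-1. The medians of the enzymes were -0.24 with siHHLA3-1 and -0.01 with siHHLA3-3. The 2 higher enzymes were CTH and, named after its value was seen, the asparagine synthetase ASNS. ASNS is also in the ATF4 list and is 1 of the 8 counted there. It had 1.80, 4.11 and 0.811 CPM with siHHLA3-1, siHHLA3-3 and siNC. CTH, which makes cysteine from cystathionine, had 9.12, 18.3 and 7.61 CPM in the same order. PSAT1, of serine synthesis, had 80.7, 143 and 78.9 CPM with siHHLA3-1, siHHLA3-3 and siNC, and GPT2, which makes alanine, 71.6, 96.3 and 59.4 CPM. GCLC, the catalytic subunit of the first step of glutathione synthesis, was lower with both siRNAs, at 82.7 CPM with siHHLA3-1 and 62.9 CPM with siHHLA3-3, against 102.5 CPM with siNC. ODC1, which makes putrescine from ornithine, lay below siNC with both siRNAs, at log2 ratios of -0.95 (siHHLA3-1) and -0.13 (siHHLA3-3), and its UTR carries CAGAATG.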
